A study of Mus musculus with 15 samples.

Results

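The comparison covered microRNAs of wild-type (WT) mouse neural crest cells at 2 stages. Cells from embryonic day 9.5 (E9.5), sorted for Sox10 and labelled as post-migratory neural crest, were set against cells from E8.5, sorted for Wnt1-Cre and labelled as a mixture of crest before and after migration. There were 2 WT libraries at E9.5 and 3 at E8.5, from embryos of strain C57BL/6 with the genotype label WT. The labels do not say how Sox10 was detected or which Cre and reporter alleles the embryos carried. The members were the microRNA hairpins with at least 10 normalized counts in at least 2 of these 5 libraries, which held for 213 of the 1226 hairpins in the table and for 213 of the 750 with any read in these 5 libraries. Wnt1-Cre labels the dorsal neural tube and all cells that descend from it, and Sox10 marks migrating crest cells and, later, their glial descendants. Stage and sort therefore change together, so an effect of age and an effect of the sort cannot be told apart. The small RNA table holds no messenger RNA, so Sox10 and Wnt1 themselves could not be checked. The series also holds 2 WT libraries of whole E7.5 embryos and 8 libraries of miR-302 knockout (KO) embryos at the same 3 stages, used here as reference values only where named.

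The neural crest is a migratory cell population that arises at the border of the neural plate, leaves the dorsal neural tube after an epithelial-to-mesenchymal transition and gives rise to sensory and autonomic neurons, glia, pigment cells and, in the head, skeleton and connective tissue. MicroRNAs are short RNAs, cut from a hairpin precursor, that pair through their seed (bases 2 to 8) with messenger RNAs and lower their output. The cluster of miR-302 and miR-367, here called the miR-302 cluster, and the rodent miR-290-295 cluster are known from pluripotent cells, the miR-200 family from epithelia, where it represses the transition factors Zeb1 and Zeb2, and miR-199a with miR-214 from mesenchyme. The let-7 family is known to accumulate as cells mature.

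The mature sequences below, from RefSeq on GRCm38.p6, belong to the hairpins that the results turn on, written 5′ to 3′ with the seed in capitals. They show which of these hairpins share a seed and which share the whole sequence, so that their reads cannot be assigned to 1 hairpin with confidence. Counts were per hairpin, so the arm that produced the reads was not measured, and the arms shown are those usually taken as functional. The first 12 belong to hairpins that were lower at E9.5.
miR-302b-3p: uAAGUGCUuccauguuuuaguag
miR-302d-3p: uAAGUGCUuccauguuugagugu
miR-294-3p: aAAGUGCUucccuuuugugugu
miR-295-3p: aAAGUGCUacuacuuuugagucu
miR-367-3p: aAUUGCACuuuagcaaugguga
miR-92b-3p: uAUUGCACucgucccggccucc
miR-200b-3p: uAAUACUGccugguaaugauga
miR-200c-3p: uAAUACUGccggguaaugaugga
miR-429-3p: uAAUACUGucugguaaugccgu
miR-200a-3p: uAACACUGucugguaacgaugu
miR-205-5p: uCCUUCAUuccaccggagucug
miR-411-5p: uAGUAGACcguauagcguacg
miR-199a-5p: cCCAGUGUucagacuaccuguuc
miR-199a-3p: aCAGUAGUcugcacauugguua
miR-199b-3p: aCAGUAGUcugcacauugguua
miR-214-3p: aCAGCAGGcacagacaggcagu
miR-99a-5p: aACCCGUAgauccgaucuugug
miR-100-5p: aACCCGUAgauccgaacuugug
miR-181a-5p: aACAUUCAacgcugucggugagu
miR-181b-5p: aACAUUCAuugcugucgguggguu
let-7a-5p: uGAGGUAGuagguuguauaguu
let-7e-5p: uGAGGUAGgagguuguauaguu
The seed AAGUGCU was common to miR-302b-3p, miR-302d-3p, miR-294-3p and miR-295-3p, which come from clusters on chromosomes 3 and 7. The seed AUUGCAC was common to miR-367-3p and miR-92b-3p, and AAUACUG to miR-200b-3p, miR-200c-3p and miR-429-3p. Among the hairpins that were higher, miR-199a-3p and miR-199b-3p were identical over all 22 bases, although their hairpins lie on chromosomes 1, 2 and 9.

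The E8.5 libraries held 24465, 124775 and 179772 hairpin reads and the E9.5 libraries 323389 and 136665, and the 213 members took 98.7% to 99.0% of the reads of each library. Values are the authors' normalized counts, in which 1 read was worth between 0.147 and 1.84, and they are given in the order of E8.5 replicates 1 to 3, then E9.5 replicates 1 and 2. Log2 fold changes are E9.5 over E8.5 on log2(normalized count + 1) with their standard error (SE), which understates the change of hairpins near 0. Adjusted p-values are limma's, adjusted by Benjamini-Hochberg over all 213 members, with n = 3 libraries at E8.5 and 2 at E9.5 throughout and a threshold of 0.05. The labels do not say that libraries of a group came from separate litters, so p-values measure the spread between these samples, which may be technical. Both E9.5 libraries carry the number 209 in their labels and the E8.5 libraries the numbers 163, 169 and 214. What this number marks is not given in the sources used here, and it cannot be told apart from stage. In sorted bulk cells, fewer cells of a type and less RNA per cell cannot be told apart.

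Between E8.5 and E9.5, 92 of the 213 hairpins passed the test (43.2% called), 41 of them higher at E9.5 (19.2% called) and 51 lower (23.9% called). An unadjusted p under 0.05 was reached by 108. The higher hairpins were led by miR-199 and miR-214, miR-181 and miR-99, and the lower ones by miR-302, miR-200 and miR-290-295. The change reached 4-fold, a log2 fold change of 2, in 10 of the higher and 19 of the lower hairpins, while the median over all 213 was 0.03. In 67 hairpins both E9.5 libraries lay above all E8.5 libraries (31.5%), and in 64 both lay below (30%). Of the 92 that passed, 88 had no overlap between the groups. The minimum of 10 was met in 1 group alone by 29 members, 22 through E8.5 and 7 through E9.5, and 21 of these passed, a share that the choice of members favours. Among the members nearest the minimum, mir-673, mir-203 and mir-3475 entered with a second-highest value of 10.03, 10.3 and 10.3, and mir-139, mir-345 and mir-107 stayed out at 9.98, 9.52 and 9.52. When the spread was estimated over all 15 libraries of the series, 8 hairpins passed (3.76% called), namely mir-302a, mir-302c, mir-302d, mir-200c, mir-135b, mir-199a-2, mir-214 and mir-99b. Over the 7 WT libraries 42 passed (19.7% called), 13 higher and 29 lower. Without E9.5 replicate 2 there were 47 calls, without E8.5 replicate 3 there were 52 and without E8.5 replicate 1 there were 60.

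**Figure D1:**
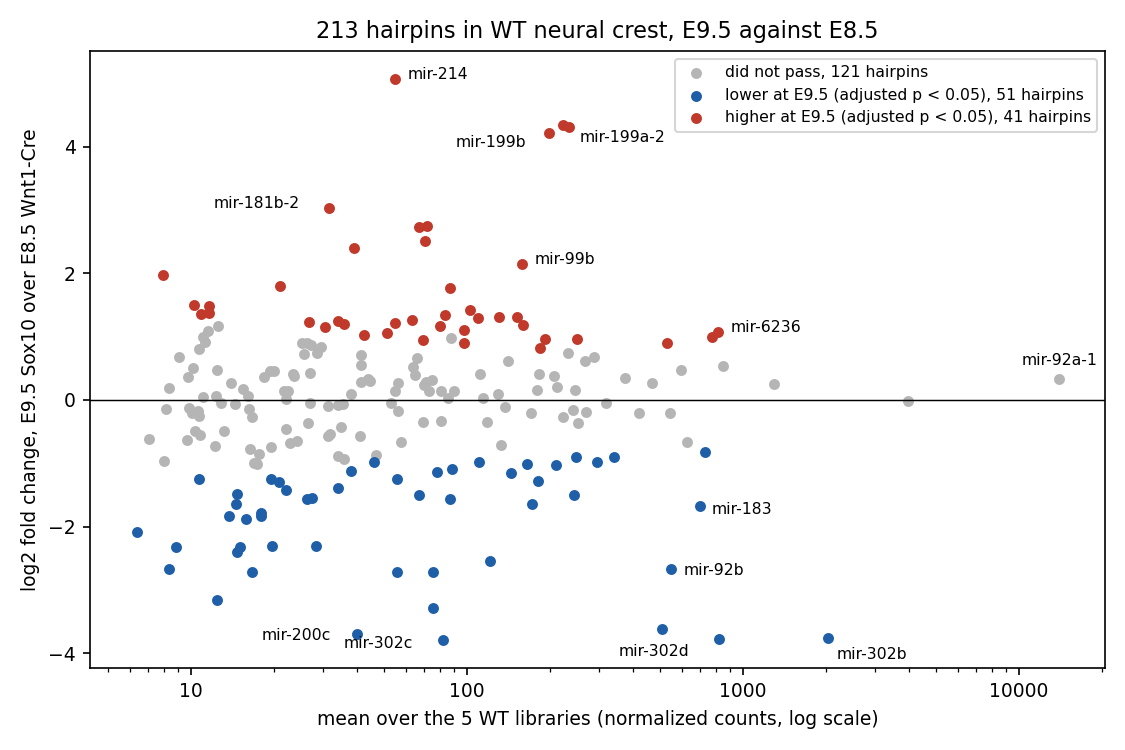
Log2 fold change of each of the 213 hairpins (E9.5 Sox10 over E8.5 Wnt1-Cre) against its mean normalized count over the 5 WT libraries on a log axis, with 41 hairpins higher in red, 51 lower in blue and 121 that did not pass in grey. The most abundant hairpin, mir-92a-1, sits near 0, while mir-302b and mir-302d combine a high level with a log2 fold change near -3.8.

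Of the lists measured here, the mesenchymal miRNAs had the highest median change. Of the 5 measured hairpins of this list, 4 rose and 0 fell, with a median log2 fold change of 4.30, and their summed level went from 127, 155 and 82.6 in the E8.5 libraries to 1779 and 1630.5 at E9.5, a 14.01-fold difference of the means. mir-214, which with miR-199a is transcribed in skeletal and connective tissue precursors, stood at 3.68, 3.05 and 2.32 normalized counts in the E8.5 libraries and at 133 and 131 at E9.5. Both E9.5 libraries were alike and lay far above all E8.5 libraries, with a 43.9-fold difference of the means. The log2 fold change of mir-214 was 5.07 ± 0.45 (adjusted p = 3.45e-12), and this hairpin met the minimum through E9.5 alone. mir-199a-2 stood at 31.2, 36.2 and 16.5, then 578 and 509.7, a log2 fold change of 4.30 ± 0.38 (adjusted p = 3.43e-12). Its copy mir-199a-1 went from 27.6, 35.9 and 14.9 to 541 and 498, and mir-199b from 23.9, 33.9 and 16.2 to 475 and 442. The 3 miR-199 hairpins were lowest in E8.5 replicate 3 and did not overlap between stages. Because miR-199a-3p and miR-199b-3p are identical, their 3 values are not independent measurements and the contribution of each locus is uncertain. mir-140, a cartilage miRNA of the same list, stood at 40.4, 46.4 and 32.7, then 50.8 and 48.97, with a log2 fold change of 0.33 ± 0.39 (adjusted p = 0.536). The 4 calls held with each library left out and under edgeR, and those of mir-199a-2 and mir-214 also over all 15 libraries.

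mir-199a-2 (chr1:162217814-162217923, GRCm38, plus strand) and mir-214 (chr1:162223368-162223477) lie in an exon of the long non-coding RNA Dnm3os, on the strand opposite to an intron of Dnm3. mir-199a-1 lies opposite to an intron of Dnm2 on chromosome 9 and mir-199b opposite to an intron of Dnm1 on chromosome 2. Since mir-199a-2 and mir-214 share this transcript and moved together, its promoter is shown, 300 bases at chr1:162217373-162217672 on the plus strand of GRCm38.p6 from RefSeq, with matches to the E-box CANNTG in capitals. This is the motif of basic helix-loop-helix factors and reads the same on both strands.
Dnm3os: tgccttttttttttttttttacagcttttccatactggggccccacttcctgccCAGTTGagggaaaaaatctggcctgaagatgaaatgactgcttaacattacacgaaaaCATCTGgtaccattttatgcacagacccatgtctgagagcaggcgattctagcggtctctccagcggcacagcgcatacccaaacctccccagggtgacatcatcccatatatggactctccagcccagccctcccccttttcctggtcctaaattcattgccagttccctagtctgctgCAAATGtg
There were 3 matches, with no overlap between them. Of 32851 promoters of the same length, 72.3% held at least 1 match and 17.6% as many as this one, and a match is a description of the letters, not a binding site.

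The miR-181 family rose. All 4 measured hairpins passed, with a median log2 fold change of 2.62. Over all 6 entries of the family, also those under the minimum, the summed level was 77.2, 87.4 and 54.3 at E8.5 against 449 and 426 at E9.5. miR-181 is best known from lymphocyte development and is also found in many other tissues. mir-181a-2 stood at 20.2, 23.4 and 16.7 in the E8.5 libraries and at 138 and 138 in the E9.5 libraries, which differed from each other by less than 1 count. Its log2 fold change was 2.73 ± 0.39 (adjusted p = 4.48e-07). mir-181b-2 of the same locus went from 7.35, 9.49 and 5.66 to 73.2 and 62.1 (3.03 ± 0.44, adjusted p = 5.81e-07) and met the minimum through E9.5 alone. The second locus, on chromosome 1, behaved alike: mir-181a-1 went from 20.2, 32.2 and 20.3 to 130.4 and 148 and mir-181b-1 from 20.2, 14.9 and 8.23 to 84.2 and 68.00. In none of the 4 did the groups overlap, and the 4 calls held with each library left out. The 2 copies of miR-181a yield the same mature sequence, so the split between the loci is uncertain. mir-181c and mir-181d were no members, with a value of at least 10 in at most 1 library (18.4 for mir-181d in E9.5 replicate 1).

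In the miR-99, miR-100 and miR-125 family, 5 of 6 measured hairpins rose and 0 fell (median 1.21). miR-99 and miR-100 differ from one another at few bases and target components of mTOR signalling, and miR-125 is the mammalian counterpart of worm lin-4. mir-99a stood at 27.6, 25.4 and 13.1 at E8.5 but at 137 and 157 at E9.5, with a log2 fold change of 2.74 ± 0.40 (adjusted p = 6.54e-07). mir-99b stood at 73.5, 55.6 and 66.9, then 365 and 231 (2.14 ± 0.35, adjusted p = 4.24e-06), and it was among the 8 that passed over all 15 libraries. Both hairpins were higher in every E9.5 library than in every E8.5 library. mir-125a went from 62.5, 40.7 and 51.7 to 159 and 83.3, mir-125b-2 from 34.9, 45.7 and 27.8 to 79.5 and 69.6 and mir-100 from 31.2, 29.1 and 8.49 to 65.1 and 36.8. Their log2 fold changes were 1.17, 1.05 and 1.25 (adjusted p = 0.015, 0.0284 and 0.0282). These 3 calls were less stable, since the family kept 2 calls without E8.5 replicate 3 and 2 without E9.5 replicate 1. mir-125b-1 had a log2 fold change of 0.74 ± 0.42 (adjusted p = 0.154). mir-99a shares an intron of Mir99ahg with let-7c-1 (chr16:77598936-77599000 and chr16:77599657-77599750), and mir-125a lies within 500 bases of let-7e in Spaca6.

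The let-7 family was higher at E9.5, but its calls depended on E9.5 replicate 2. Of 11 measured hairpins 9 rose, 0 fell and all 11 had log2 fold changes above 0 (median 1.29). let-7a-2 stood at 80.9, 94.2 and 88.5 in the E8.5 libraries and at 135 and 358 in the E9.5 libraries, a log2 fold change of 1.32 ± 0.37 (adjusted p = 0.00493). let-7f-2, in an intron of Huwe1, went from 40.4, 63.01 and 77.7 to 111 and 221 (1.41 ± 0.38, adjusted p = 0.00362). let-7c-2 went from 73.5, 56.6 and 66.9 to 103 and 249.9 and let-7b from 49.6, 38.3 and 48.1 to 60.4 and 219.6. In each of these E9.5 replicate 2 was the high library, with E9.5 replicate 1 between it and the E8.5 range. let-7e, at 11.03, 8.47 and 10.03, then 29.1 and 46.2, had the largest log2 fold change of the family (1.80 ± 0.45, adjusted p = 0.00165). Summed over all 14 entries of the list, also those under the minimum, the level was 516, 552 and 595 at E8.5 against 831 and 2030.0 at E9.5. The E9.5 libraries thus differed from each other 2.44-fold. Without E9.5 replicate 2 the family had 0 calls and a median of 0.50, and without E9.5 replicate 1 it had 10 calls and a median of 1.91. Without E8.5 replicate 3 there were 3 calls and without E8.5 replicate 1 there were 4. The copies of let-7a, let-7c and let-7f have the same mature sequences, and other members differ by few bases, so the values of single hairpins are uncertain. In whole E7.5 WT embryos the same sum was 13098 and 3271.

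Some further hairpins were, like let-7, higher in E9.5 replicate 2 than in E9.5 replicate 1. Of the endoderm and liver miRNAs, 4 of 5 rose and 1 fell. mir-122, the main liver miRNA, stood at 22.1, 23.04 and 20.6, then 33.1 and 79.9 (1.20 ± 0.43, adjusted p = 0.0226), and mir-192 at 25.7, 44.4 and 36.02, then 62.8 and 106 (1.22 ± 0.40, adjusted p = 0.0147). mir-194-1 and mir-194-2 passed as well, at 1.38 and 1.15, and mir-194-1 met the minimum through E9.5 alone. Both E9.5 libraries lay above the E8.5 libraries for these 4, and replicate 2 was the higher in each. mir-375, a miRNA of pancreatic islets and neuroendocrine cells, was lower (114, 56.6 and 45.5, then 16.2 and 45.9, -1.25 ± 0.44, adjusted p = 0.0204), with E9.5 replicate 2 inside the E8.5 range, and edgeR did not call it (adjusted p = 0.097). The summed level of the list was 182, 149.7 and 134 at E8.5 against 152 and 326 at E9.5, with 0 calls left without E8.5 replicate 1 or E8.5 replicate 3. The calls of the rises did not hold without E9.5 replicate 2 either. There the log2 fold changes were 0.57 for mir-122, 0.84 for mir-192, 0.68 for mir-194-1 and 0.59 for mir-194-2. mir-6236, an entry of high level, stood at 632, 354 and 595, then 633 and 1847 (1.08 ± 0.32, adjusted p = 0.00776), so the difference lay in E9.5 replicate 2, and the call was lost without it, as without E8.5 replicate 1 or 3. Over all 213 members the E9.5 libraries were more than 2-fold apart in 32, with replicate 2 the higher in 18 and replicate 1 in 14. Of the 41 higher calls 10 were more than 2-fold apart, each with replicate 2 above, and of the 51 lower calls 10, with replicate 1 above in 8 and replicate 2 in 2. The part of other cells or of RNA from outside the sort in these values was not tested.

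**Figure D2:**
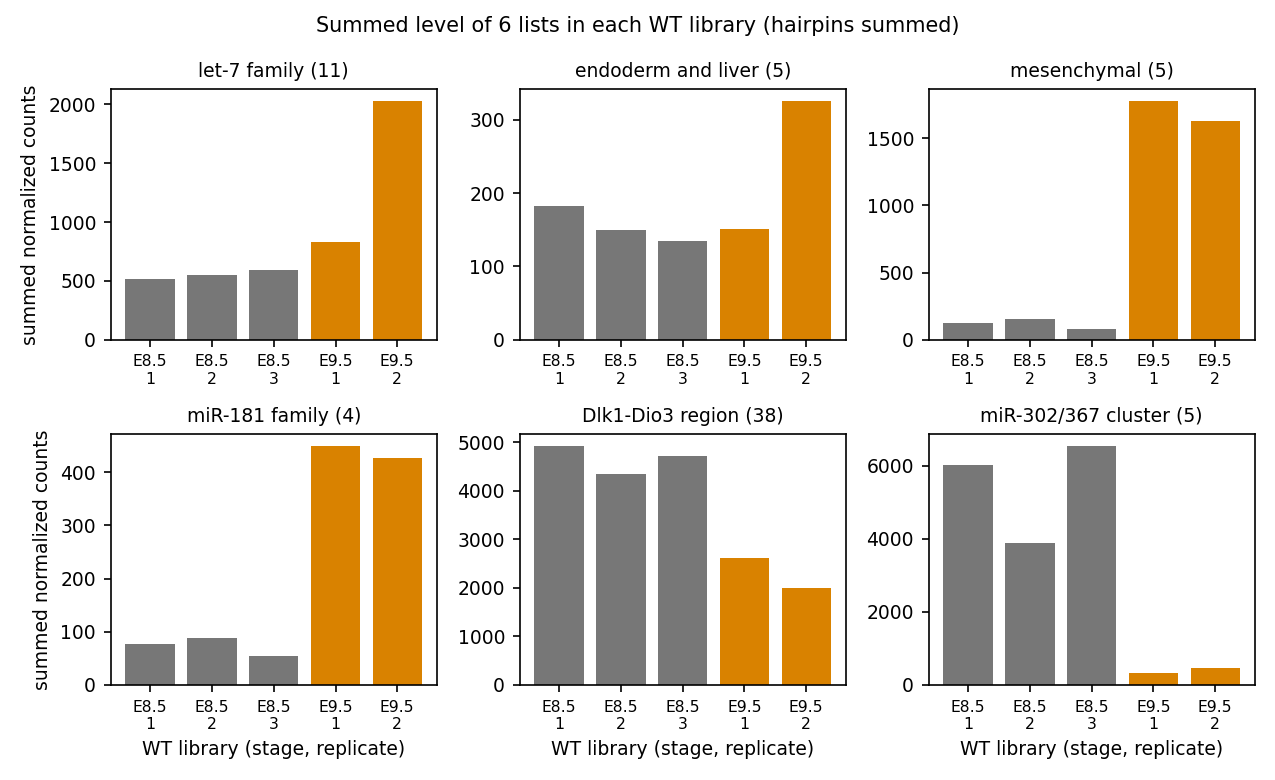
Normalized counts summed over all entries of 6 lists, also those under the minimum, in each WT library. The 3 E8.5 libraries are in grey, the 2 E9.5 libraries in orange, and bars start at 0. The number in each panel title counts the measured hairpins of the list. The let-7, mesenchymal, miR-181, Dlk1-Dio3 and miR-302 sums of both E9.5 libraries lie on the same side of all E8.5 libraries. Of these 6 lists the E9.5 libraries differ most from each other in let-7 (831 and 2030.0) and the endoderm and liver list (152 and 326).

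The miR-302 cluster fell with all 5 hairpins (median log2 fold change -3.75), and its summed level went from 6026, 3884 and 6539 to 339.9 and 468, a 13.6-fold drop of the means. At E8.5 the cluster still took 9.19% to 14.1% of a library's reads, and at E9.5 0.715% and 1.10%. mir-302b, its most abundant hairpin, stood at 3640.5, 2145 and 3935 in the E8.5 libraries and at 212 and 253 in the E9.5 libraries (-3.75 ± 0.26, adjusted p = 1.47e-14). mir-302d stood at 1364, 1044 and 1478, then 70.8 and 121 (-3.78 ± 0.30, adjusted p = 2.54e-13), and mir-302a at 838, 604 and 967, then 49.2 and 82.3 (-3.61 ± 0.32, adjusted p = 3.43e-12). E8.5 replicate 2 was the lowest of its group in all 5 hairpins, yet no E9.5 value reached it. mir-302c went from 169, 82.3 and 142 to 6.47 and 10.3 (-3.78 ± 0.41, adjusted p = 7.34e-10). mir-367, which ends the cluster and has another seed, went from 14.7, 8.81 and 16.98 to 1.76 and 1.87 (-2.32 ± 0.52, adjusted p = 4.81e-04) and met the minimum at E8.5 alone. The 5 hairpins lie within 1 kb on the plus strand of chromosome 3, from mir-302b (chr3:127545228-127545301) to mir-367 (chr3:127545733-127545807), opposite to an intron of Larp7. In whole E7.5 WT embryos the summed level was 4042 and 14324, a range that held E8.5 replicates 1 and 3 but not E8.5 replicate 2, which lay below it. All 5 calls held with each library left out.

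The miR-290-295 cluster, the other cluster of pluripotent cells, fell as well. All 5 measured hairpins passed (median -2.71). Over all 9 entries of the cluster, also those under the minimum, the sum went from 318, 224 and 339 to 49.7 and 36.2, 6.84-fold lower. mir-293 stood at 127, 88.1 and 129 at E8.5 but at 19.5 and 13.7 at E9.5 (-2.71 ± 0.39, adjusted p = 4.48e-07). mir-292a stood at 97.4, 57.9 and 98.5, then 17.2 and 7.80 (-2.72 ± 0.42, adjusted p = 1.60e-06). mir-291a, mir-294 and mir-295 were at 18.4 to 54.5 at E8.5 and at 0.882 to 7.64 at E9.5, with log2 fold changes of -3.15, -2.32 and -2.31. The groups did not overlap in any of the 5, but mir-291a, mir-294 and mir-295 met the minimum through E8.5 alone. At E7.5 the whole WT embryo held 3053 and 6144 summed normalized counts, above every E8.5 value. The summed level of this cluster at E8.5 was far below that of miR-302, with which miR-294-3p and miR-295-3p share the seed AAGUGCU.

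**Figure D3:**
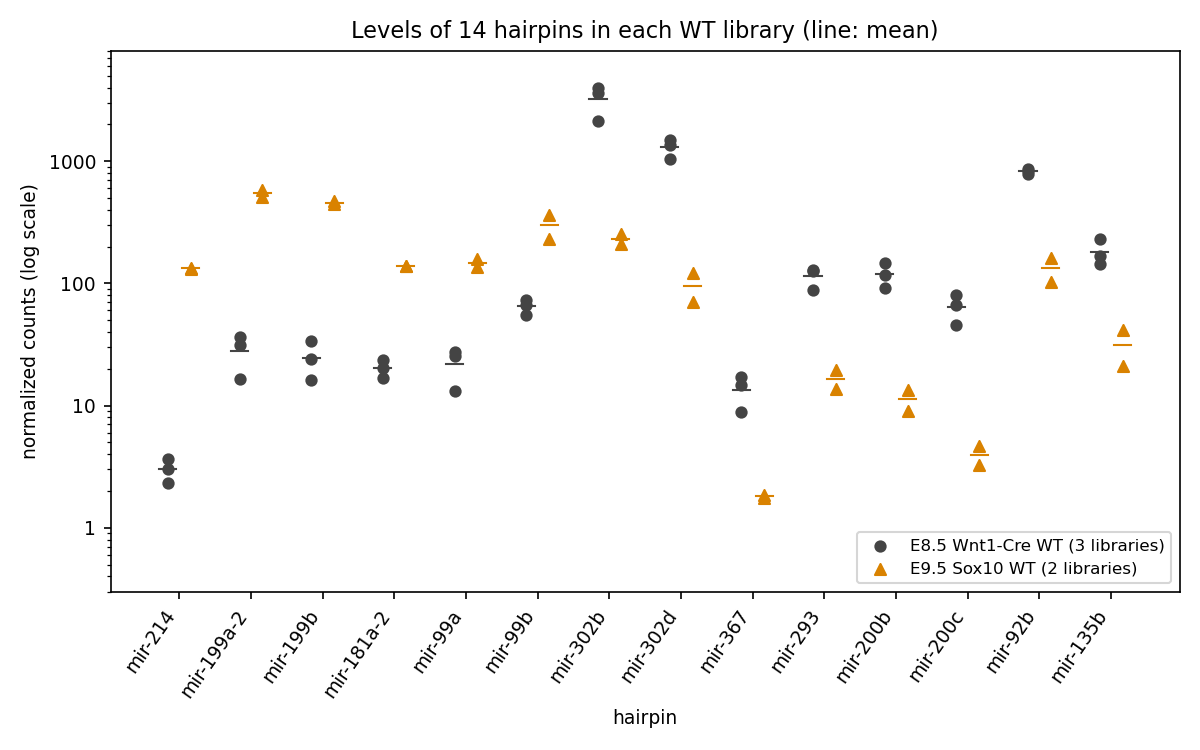
Normalized counts of 14 hairpins on a log axis, with the 3 E8.5 Wnt1-Cre WT libraries as grey circles, the 2 E9.5 Sox10 WT libraries as orange triangles and lines at the group means. The groups are separate in each hairpin shown, with mir-214, miR-199, miR-181 and miR-99 higher at E9.5 and the rest lower.

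The epithelial miRNAs fell with 5 of 6 measured hairpins (median -2.69). Over all 7 entries of the list, mir-141 among them, the sum went from 244, 228 and 291 to 26.9 and 29.01, 9.10-fold lower. mir-200b stood at 91.9, 117 and 147 in the E8.5 libraries and at 13.4 and 9.05 in the E9.5 libraries (-3.29 ± 0.40, adjusted p = 8.53e-09). mir-200c, of a second locus on chromosome 6, stood at 66.2, 45.7 and 80.8, then 3.23 and 4.68 (-3.70 ± 0.44, adjusted p = 5.79e-09). In both the E9.5 values lay far below the lowest E8.5 value. mir-429 (-2.71) and mir-200a (-2.66), which lie within 2 kb of mir-200b on chromosome 4, passed with it (adjusted p = 1.64e-05 and 8.99e-05). mir-205, a miRNA of stratified epithelia with an unrelated seed, stood at 31.2, 13.9 and 21.1, then 1.76 and 5.30 (-2.40 ± 0.51, adjusted p = 2.17e-04). mir-203, which is known from skin, had a log2 fold change of -0.62 ± 0.57 (adjusted p = 0.423), and mir-141 was under the minimum. All but mir-200b met the minimum through E8.5 alone. The 5 calls held with each library left out. The sum at E8.5 was below that of whole E7.5 WT embryos (544 and 1026).

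Several hairpins outside these clusters fell by a like amount. mir-92b, which is known from neural progenitors and shares the seed of miR-367-3p, stood at 781, 867 and 836 in the E8.5 libraries and at 162 and 103 at E9.5, with a log2 fold change of -2.67 ± 0.30 (adjusted p = 1.15e-09). In whole E7.5 WT embryos it stood at 102 and 195, so that among the WT groups the E8.5 libraries were the high ones. Its relatives of the miR-17-92 clusters, mir-92a-1 and mir-92a-2, did not follow: mir-92a-1, the most abundant hairpin, stood at 12976, 12323 and 12436, then 17808 and 13989 (0.33 ± 0.16, adjusted p = 0.101), and mir-92a-2 at 3683, 3866 and 4432, then 4047 and 3792 (-0.02 ± 0.20, adjusted p = 0.934). mir-135b, in an intron of Lemd1, went from 145, 229 and 166 to 41.4 and 20.9 (-2.55 ± 0.38, adjusted p = 6.69e-07), and its relatives mir-135a-1 and mir-135a-2 were lower at -1.12 and -1.30. The mir-135a-1 groups overlapped, and both mir-135a calls were lost without E8.5 replicate 2, E8.5 replicate 3 or E9.5 replicate 2. mir-31 (29.4, 30.8 and 27.5, then 6.47 and 4.06, adjusted p = 8.99e-05) and mir-708 (22.1, 28.5 and 25.7, then 8.67 and 4.99, adjusted p = 0.00214) fell with no overlap, and both met the minimum through E8.5 alone. mir-135a-1, mir-135a-2, mir-31 and mir-708 were chosen after their values were seen.

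The cluster of miR-183, miR-96 and miR-182, known from sensory organs and sensory ganglia, was lower with 2 of 3 hairpins. mir-183 stood at 1204, 719 and 915 at E8.5 but at 457 and 185 at E9.5 (-1.67 ± 0.31, adjusted p = 4.09e-05). mir-182 stood at 671, 811 and 1134, then 713 and 326 (-0.82 ± 0.30, adjusted p = 0.0258), where E9.5 replicate 1 lay inside the E8.5 range and replicate 2 below it. mir-96 had a log2 fold change of -0.55 ± 0.49 (adjusted p = 0.407). The mir-182 call was lost without E8.5 replicate 1, E8.5 replicate 3 or E9.5 replicate 2, and it was not made by edgeR.

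The Dlk1-Dio3 region, an imprinted domain on chromosome 12 whose microRNAs are expressed from the maternal chromosome, was lower as a whole. All 38 of its measured hairpins had log2 fold changes below 0 and 25 fell, with a median of -1.02 against 0.03 over all hairpins. Of the 38, 7 met the minimum through E8.5 alone, which favours a fall. Among these 7, mir-341, mir-376b, mir-380 and mir-381 were called. The sum went from 4918, 4356 and 4708 to 2623 and 2001, 2.02-fold lower, and from 10.2% to 10.9% of a library's reads to 5.52% and 4.69%. mir-431, which lies antisense to Rtl1, stood at 265, 252 and 192 at E8.5 but at 87.9 and 63.01 at E9.5 (-1.64 ± 0.34, adjusted p = 1.64e-04). mir-411 of the large cluster stood at 382, 301 and 299, then 155 and 84.5 (-1.50 ± 0.33, adjusted p = 3.68e-04), and mir-543 at 252, 196 and 259, then 111 and 83.3 (-1.27 ± 0.33, adjusted p = 0.00262). In these 3 both E9.5 libraries lay below all E8.5 libraries. mir-541, the most abundant of the region, stood at 583, 739 and 895, then 497 and 424, with a log2 fold change of -0.66 ± 0.28 that missed the threshold by a small margin (adjusted p = 0.05002). mir-409, mir-382 and mir-379 were lower by 0.89, 0.91 and 0.98 on the log2 scale (adjusted p = 0.0157, 0.0186 and 0.0155). The members form 3 blocks, and calls were made in each: 5 of 9 hairpins in the first 30.8 kb from mir-770 at chr12:109563692-109563785, 2 of 2 within Rian, and 18 of 26 in the last 35 kb, where the host of several is Mirg. The medians of the blocks were -0.98, -1.22 and -1.15. One further hairpin, mir-666, had no position in the annotation. The hairpins of the region are transcribed together, so the 38 values are not independent. Without E9.5 replicate 2 the region had 7 calls and a median of -0.88, without E8.5 replicate 3 there were 11 calls and without E8.5 replicate 1 there were 15. Over the 7 WT libraries it had 8 and over all 15 libraries 0.

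**Figure D4:**
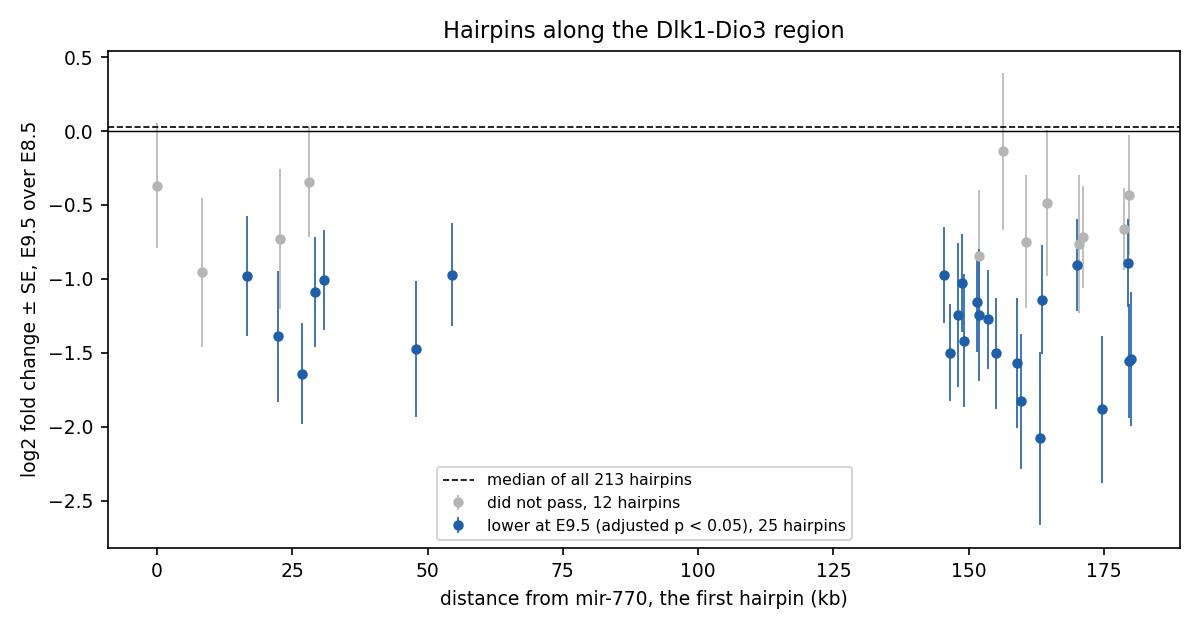
Log2 fold change with its SE (E9.5 over E8.5) of the 37 Dlk1-Dio3 hairpins with a position, against their distance in kb from mir-770. Every hairpin lies below 0 and below the median of all 213 hairpins (dashed line), with 25 that passed in blue.

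Other lists changed little or in few members. Of the 15 hairpins of the miR-17-92 clusters, which promote proliferation, 2 rose, mir-17 (0.83 ± 0.34) and mir-19a (1.02 ± 0.42), and 0 fell, with a median of 0.27. The mir-17 call was lost without any 1 library but E8.5 replicate 2, the mir-19a call without any 1 of the 5, and edgeR did not call mir-19a. In the miR-322 and miR-503 cluster 3 of 7 rose: mir-322 (1.23), mir-351 (0.94) and mir-503 (1.35), with 0 left without E8.5 replicate 3 or E9.5 replicate 1. Of the miR-30 family 1 of 6 rose, mir-30a, at 342, 506 and 340.1, then 793 and 672 (0.91 ± 0.29, adjusted p = 0.0117), a call lost without E8.5 replicate 1, E8.5 replicate 3 or E9.5 replicate 1. mir-143 of the vascular and smooth muscle list stood at 69.8, 30.5 and 37.3, then 156 and 142 (1.77 ± 0.39, adjusted p = 3.68e-04), while mir-126a, the endothelial miRNA of that list, stood at 55.1, 34.6 and 18.8, then 33.5 and 14.3 (-0.57 ± 0.46, adjusted p = 0.36). mir-342, in an intron of Evl, rose from 55.1, 125 and 151 to 225 and 239 (1.19 ± 0.37, adjusted p = 0.011). mir-5099 stood at 436, 372 and 927, then 980.3 and 1149 (0.996 ± 0.30, adjusted p = 0.00865). mir-7a-1 and mir-7a-2, copies of a miRNA of neuroendocrine cells, stood at 138, 176 and 233, then 374 and 327, and at 105, 139 and 179, then 283 and 256, with log2 fold changes of 0.97 and 0.96 (adjusted p = 0.0152 and 0.019). The low hairpins mir-505, mir-760 and mir-3535, at up to 12.9 in any E8.5 library, rose by 1.48, 1.98 and 1.502 on the log2 scale, and edgeR did not call mir-3535. These 5 calls were each lost without at least 1 library, mir-760 without E9.5 replicate 2. The mir-7a, mir-505, mir-760 and mir-3535 hairpins were chosen after their values were seen, and mir-505 and mir-760 met the minimum through E9.5 alone. The mir-342 call was lost without E8.5 replicate 1 or E9.5 replicate 2, and the mir-5099 call without E8.5 replicate 1 or 2 and in edgeR.

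Of 12 measured neural miRNAs 0 rose and 2 fell, both copies of miR-219a (mir-219a-1 -1.64 ± 0.55, mir-219a-2 -1.83 ± 0.49), a miRNA of oligodendrocytes that is also present in the early neural tube. Both copies met the minimum through E8.5 alone, which favours a fall, and the mir-219a-1 groups overlapped. The median of the list was -0.76. mir-124-1, the neuronal miRNA, stood at 67.99, 35.2 and 31.4, then 18.5 and 25.6 (-0.93 ± 0.43, adjusted p = 0.0768), and mir-9-2 of neural progenitors at 14.7, 30.8 and 16.2, then 18.8 and 36.2 (0.41 ± 0.45, adjusted p = 0.509). mir-128-1, mir-128-2, mir-218-1 and mir-218-2 had log2 fold changes of 0.13, -0.18, -0.86 and -0.66, and none passed. In both stages neural miRNAs summed to at most 507 normalized counts. The neural list had 0 calls without E9.5 replicate 2.

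No hairpin passed limma's adjusted threshold in the miR-15 and miR-16 family (4 measured), the miR-130 and miR-301 family (4), the miR-23, miR-27 and miR-24 clusters (3), the miR-26, miR-29 and miR-148 families (7), miR-21 with miR-221 and miR-222 (3), or the commonly used reference miRNAs (4). Over these lists and the muscle list, 1 of 26 hairpins had an unadjusted p under 0.05, and edgeR called 0. mir-16-2 stood at 265, 365 and 224, then 288 and 206, mir-26a-1 at 659.7, 528 and 539, then 498 and 493, and mir-21a at 311, 374 and 329.6, then 420.4 and 434. The reference miRNA mir-191 stood at 130.5, 139 and 155, then 133 and 128, with a log2 fold change of -0.11 ± 0.34 (adjusted p = 0.821). Of the other abundant hairpins, mir-335 (1117, 1225 and 1262, then 1604 and 1262) and mir-30d (706, 754 and 693, then 1202 and 892), did not pass (adjusted p = 0.456 and 0.0957). The muscle list had 1 measured hairpin, mir-1a-1, at 27.6, 10.5 and 13.6, then 4.26 and 54.3, with the E9.5 libraries on either side of the E8.5 range. The Hox-cluster, Sfmbt2 intron, blood, miR-34 and miR-449, and miR-204 and miR-211 lists had 0 hairpins over the minimum. The blood list summed to 7.79 to 14.7 at E8.5 and to 11.9 and 12.9 at E9.5. Its defining members mir-451a and mir-486a were listed at 0 in all 5 libraries. However, mir-30e and mir-24-1, which most cells express, were listed at 0 as well, and mir-24-2 had 1 read in 1 library, so a listed 0 does not show that a miRNA was absent.

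**Figure D5:**
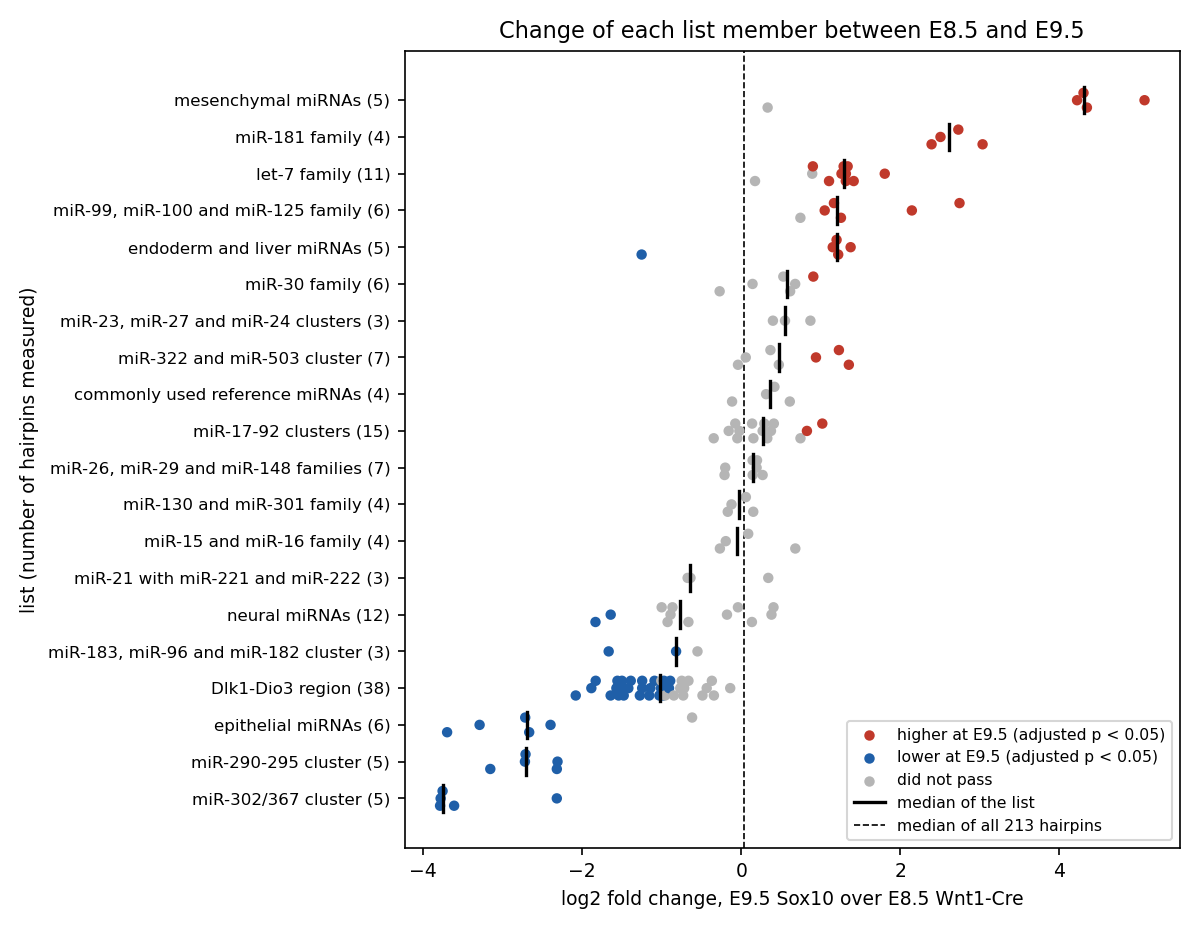
Log2 fold change of each measured hairpin in the lists with 3 or more hairpins, with red for higher, blue for lower and grey for hairpins that did not pass, a bar at each list's median and a dashed line at the median of all 213 hairpins (0.03). The mesenchymal list (median 4.30) and the miR-302 cluster (median -3.75) lie at the ends.

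Called hairpins that lie close together were called in the same direction. With a gap of at most 10000 bases between neighbours, 18 genomic clusters held 2 or more called hairpins, 60 hairpins in all, and 11 of these clusters were higher, 7 were lower and 0 held calls in both directions. The 2 loci of miR-181, the cluster of miR-99a and let-7c-1 and that of let-7e and miR-125a were among the higher clusters. The blocks of the Dlk1-Dio3 region, miR-302, miR-200b with miR-200a and miR-429, and miR-293 to miR-295 were among the lower. Only called hairpins were counted, so neighbours that did not pass are left out, whichever their direction. The share of all 213 members in such clusters was not counted, nor how often all neighbours had the same sign. Neighbours can share a transcript, and copies with one mature sequence share reads, so these are descriptions of the loci and not independent counts. Of the 92 calls, 21 were in families of numbered copies, a share similar to that among all members (46 of 213).

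The same step was measured in miR-302 KO cells, which share no library with the WT comparison (4 KO libraries at E8.5 and 2 at E9.5, with 1706 to 46082 reads). In these KO libraries 1 read was worth between 0.715 and 19.3 normalized counts. Of the label numbers, both E9.5 KO libraries carry 171, E8.5 KO replicates 2 and 3 carry 128, and E8.5 KO replicate 4 carries 169, as does E8.5 WT replicate 2. The fits took each library as independent, which was not tested, and number and stage cannot be told apart in KO either. Of the 41 hairpins that rose in WT, 37 had a KO log2 fold change above 0, against 56.8% of all 213 hairpins. Of the 51 that fell, 38 were below 0, against 43.2%. The 51 hold all 5 hairpins of the targeted cluster, of which 4 had a KO log2 fold change above 0 and 1 below. With the KO libraries scaled to equal sums, which moved the median KO change by -0.82, 36 of the 41 were above 0, against 45.1% of all hairpins. Of the 51, 41 were below 0, against 54.9%. mir-214 had a KO log2 fold change of 4.07, mir-199a-2 of 2.78 and mir-92b of -2.07. mir-200b stood at 226, 182, 77.3 and 89.5 in the E8.5 KO libraries and at 80.7 and 0 at E9.5, so E9.5 KO replicate 1 lay inside the E8.5 KO range and the KO log2 fold change (-3.86) rests on replicate 2, listed at 0. Other hairpins lower in WT were less so, or higher, in KO: mir-200c had a KO log2 fold change of -0.73, mir-183 of 0.46 and mir-182 of 1.32, and the difference from the WT step did not pass for any of the 3 (adjusted p = 0.0897, 0.143 and 0.133). The step itself differed between KO and WT in 3 hairpins (1.41% called), mir-302a, mir-302b and mir-302d of the targeted cluster, and 24 had an unadjusted p under 0.05. These 3 held 0 to 7 reads in each E8.5 KO library, so a fall like that of WT could not show in KO. In the libraries labelled KO, mir-302b stood at 11.04, 2.14, 19.3 and 0 at E8.5 (7, 3, 1 and 0 reads). At E9.5 it stood at 101 and 34.8 (69 and 12 reads). mir-302a and mir-302d were at 0 reads in all 4 E8.5 KO libraries and had reads in both E9.5 libraries labelled KO. There mir-302a stood at 5.87 and 29.01 (4 and 10 reads) and mir-302d at 35.2 and 11.6 (24 and 4 reads). The size of their fitted difference thus depends on the pseudocount. The libraries labelled KO at E9.5 thus held reads of the targeted hairpins, and directions drawn from them carry that limit.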

How the data were processed

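Per the labels' protocols, E8.5 and E9.5 cells were sorted into Trizol-LS, RNA was purified with miRNeasy columns and small RNA libraries were made with a NEXTflex kit and gel size selection. FastQC 0.11.5 and STAR 2.7.0f with genome build mm10 are named in the submitters' processing notes, and no counting tool is named there. The deposited signal is a normalized count, made by the authors by dividing each hairpin's reads by 1 size factor per library. All 6086 values above 0 (100%, within 0.001) were whole multiples of 1 read, so reads were recovered. Of 3337 entries, 2108 named mature arms and were 0 in every library. In the column headers of the authors' deposited sheets 1 further code matched no sample, and its values were not used. Of 3 repeated hairpin names the first entry was kept, none a member.

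The test was limma 3.58.1 (trended empirical Bayes, two-sided, R 4.3.3) on log2(normalized count + 1) over the 5 libraries, with a threshold of 0.05. The step in KO used the same model over the 6 KO libraries of E8.5 and E9.5, and its difference from WT over 11 libraries. No replicates were merged, since the chi-square of each pair's reads over its degrees of freedom was 6.92 to 47.0. edgeR 4.0.16 (quasi-likelihood) on the recovered reads called 88 hairpins, 86 of them shared with limma, and DESeq2 1.42.0 called 90. Named hairpins were the 15 with the highest and 15 with the lowest change among those that passed, with no overlap and a mean of at least 100 in the higher group, the 10 with the highest mean, all miR-302 and miR-367 hairpins and up to 4 of the highest mean per list. Others are named where a count was small or a list or locus is described, with their values already seen. Members, lists and tests were chosen with earlier results of these data known. Of the members, 179 of 213 matched the RefSeq miRNA table by name, and host genes came from the GRCm38 annotation. The test scripts were checked on simulated data. Counting error alone sets the floor of 3 reads, and reads are not independent molecules.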

Additional observations from a re-analysis of the deposited data

Results flagged for a closer look

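The step from E8.5 to E9.5 differed between KO and WT in 3 hairpins of the targeted cluster. The KO log2 change minus the WT change was 7.45 ± 1.004 (SE) for mir-302a (limma, adjusted p = 0.00163), 7.28 ± 1.47 for mir-302b (adjusted p = 0.0327) and 8.19 ± 0.86 for mir-302d (adjusted p = 3.22e-04). These were flagged because the difference between the 2 genotypes was itself tested, over 5 WT and 6 KO libraries. In WT the 3 hairpins fell. In the libraries labelled KO they stood at 0 to 19.3 at E8.5 (0 to 7 reads) and at 5.87 to 101 at E9.5 (4 to 69 reads). They belong to the cluster that the KO targets, and from so few reads at E8.5 a fall like that of WT could not show in KO. The test therefore cannot tell whether the step differed apart from this. The part of the reads of the targeted hairpins in the E9.5 libraries labelled KO was not tested.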

How the results depend on the processing

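The count of 92 calls (41 higher, 51 lower) was 8 (3 and 5) with the spread of all 15 libraries and 42 (13 and 29) with that of the 7 WT libraries. It stayed within 1.5 times under edgeR with TMM (40 and 48), edgeR with the authors' size factors (39 and 51), DESeq2 (41 and 49), TMM scaling (38 and 44), library-sum scaling (35 and 50), no filter (36 and 45 of 750 tested) and a pseudocount of 10 (40 and 49). A minimum of 50, which tests 110 hairpins, gave 33 higher and 29 lower. Leaving out 1 library gave 47 to 83 calls (18 to 35 higher, 29 to 50 lower), and 37 of the 92 (11 higher, 26 lower) passed in each of the 5 such fits. No alternative turned the direction of any of the 92 called hairpins. Of the 121 that were not called, 46 changed sign when 1 library was left out, and 19 under at least 1 of the other alternatives. Of the named hairpins, mir-1a-1 changed sign and passed the threshold: at 0.01, it ranged from -1.68 without E9.5 replicate 2 to 1.71 without E9.5 replicate 1. With members that met the minimum in both groups, an alternative chosen after seeing the data, 35 of 184 were higher and 34 lower. Scaling moved the median of all hairpins by at most 0.07 (log2) in WT. The cause of these changes was not tested.

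The replicate block left 62 calls (30 higher, 32 lower). The labels do not say that shared replicate numbers pair the samples. Deviations of same-numbered libraries had correlations of -0.14 and -0.24. The deviations of the 2 E9.5 libraries mirror each other by construction, so these values cannot show whether libraries were paired. The block result is given here alone. The 3 hairpins whose step differed between KO and WT were 5 over all 15 libraries, 2 under library-sum scaling, which moved the median difference by -0.76, 3 under edgeR, 4 with a pseudocount of 10, 3 with the replicate block and 2 to 6 with 1 library left out, with 6 without E8.5 KO replicate 1. Depth limits the low hairpins most: in E8.5 replicate 1, 1 read is worth 1.84 normalized counts.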
